A study of Mus musculus with 2 samples.

Results

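Interferon-stimulated genes were examined in macrophages sorted from the fetal liver of wild-type and c-Maf knockout mouse embryos. The list held 34 genes, of which 28 are induced mainly by type I interferon and 6 encode GTPases typical of the response to interferon-gamma. A probe set was taken as a gene's own when the platform annotation named that gene alone, and among several the brightest by mean deposited signal of wild type and c-Maf KO stood for the gene. This found 29 of the 34 genes on 43 probe sets, out of 18193 genes named in this way on the array. Of the 29, 24 were type I genes and 5 were GTPase genes. Isg15, Gbp4 and Ifi205 were named only together with other genes and received no value, and the signals of Oas1g and Ifi44 are not analysed here.

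The cells came from C57BL/6J embryos at E15.5 (days of embryonic development) that were either c-Maf+/+ (wild type) or c-Maf-/- (c-Maf KO), with no treatment. Cells carrying both Mac-1 and F4/80 on their surface were collected by flow cytometry, and total RNA of each genotype was read on 1 Affymetrix array, so that 1 wild-type array was set against 1 c-Maf KO array. The genotype was that of the embryo, not of macrophages alone, and the number of embryos behind each sort is unknown here. With 1 array per group no value has a replicate error, no test or p-value was possible, and the statements below describe these arrays. The number of arrays limits the precision. In such bulk samples, fewer cells of a type and less RNA per cell cannot be told apart.

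Interferons are cytokines of antiviral and antibacterial defence. Type I interferons act through the receptor chains Ifnar1 and Ifnar2 and the kinases Jak1 and Tyk2, which lead to a transcription factor complex with Stat2 and Irf9 that binds the interferon-stimulated response element (ISRE). Interferon-gamma acts through Ifngr1, Ifngr2, Jak1 and Jak2, and many of its target genes carry the gamma-activated sequence (GAS). Macrophages keep many of these genes at a low level without infection, and c-Maf (gene Maf) is a leucine zipper protein that regulates transcription in macrophages and other cells.

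Most probe sets were dimmer on the c-Maf KO array, with a median deposited signal of 2.98 over all probe sets against 4.73 in wild type. The 18 probe sets for hybridisation control RNAs did not share this, with a median deposited log2 ratio of 0.24. Because the medians differed, signals were brought to one distribution by quantile normalization, and the counts below depend on that choice. The level-adjusted log2 ratio of c-Maf KO over wild type is the ratio used below. Values under a floor of 3.75, the median of all level-adjusted values, were raised to it, so that a gene under the floor on 1 array has only a bound ("at least N-fold"). "Higher" and "lower" are used for genes at least 2-fold apart on this scale. Probe sets of the same gene differed in ratio by an SD of 0.64 log2 units (3167 bright probe sets in 1315 genes), which is no replicate error, since all were read on the same arrays. Maf itself went from a deposited signal of 47.6 in wild type to 0.219 in c-Maf KO, at least 8.51-fold lower. Control probe sets for Actb had 13.3 times as much 3' as 5' signal in wild type and 6.05 times in c-Maf KO (Gapdh 1.83 and 0.90), so a ratio can depend on where a probe lies.

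Interferon-stimulated genes had larger ratios of c-Maf KO to wild type than most other genes. Of the 26 measured members (those that reached the floor in wild type, in c-Maf KO or in both), 7 were at least 2-fold higher in c-Maf KO and 0 were at least 2-fold lower. Over all 13290 measured genes the corresponding shares were 8.34% higher and 9.05% lower. The 7 higher genes were Rtp4, Xaf1, Ifi27l2a, Ifit2, Ifih1, Oasl2 and the GTPase gene Igtp, and the other 19 were within 2-fold. Ifit2 counts as measured only through the c-Maf KO array, on which it was bright. Ifit1, Ifit3 and Mx1 were also over the floor on 1 array only. For the 22 members over the floor on both arrays the median ratio was 0.82, and 20 had a ratio above 0. Among all 9452 such genes 50.2% did. Under each of 6 scalings compared, 22 of the 26 members measured on that scale had a ratio above the median of all measured genes. These were not always the same 22. Several of the scalings differ, apart from the floor, only by a constant added to every log2 ratio, so their like counts are not independent. The members' direction in signal depended on the scale. In deposited signal, 10 of the 26 were brighter on the c-Maf KO array, against 19.4% of all measured genes, and the remaining 16 were dimmer. Counted from deposited signals with their own floor, 1 member was at least 2-fold higher (all genes 1.19%) and 3 were at least 2-fold lower (all genes 39.8%).

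**Figure D1:**
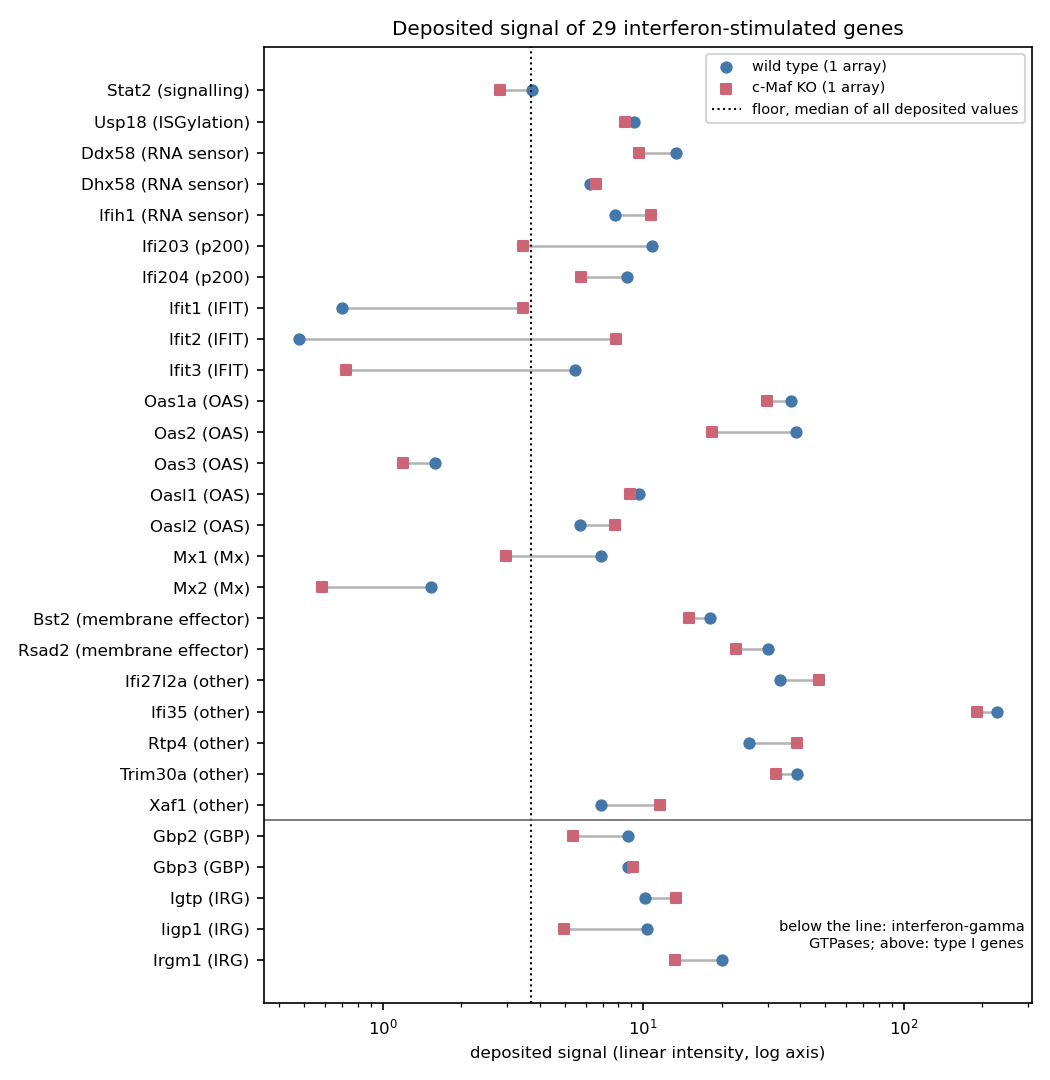
Deposited signal (horizontal, log axis) of the 29 members with a probe set of their own, with wild type as circles and c-Maf KO as squares, 1 array each; genes are grouped by role and the dotted line is the floor for deposited values, 3.70. Signals run from 0.478 to 228, most pairs lie close together, and only 10 of the measured members have the square to the right of the circle.

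The ISRE and GAS letters were looked for in the promoters of the members, because they are the sites through which such genes are known to respond; the list rests on that known response, so the shares describe its members and are no independent finding. RefSeq windows on GRCm38.p6, from 250 bases before to 50 bases after a start site, were matched for 24 of the 34 genes, among them Isg15, Oas1g, Ifi44 and Ifi205, which have no signal value. The ISRE was searched as GAAANNGAAA and its reverse TTTCNNTTTC, and the GAS as TTCNNNGAA, which reads the same on both strands; overlapping matches were all kept. ISRE letters were in the window of 18 of the 24 members (75%), against 3.99% of all 27025 genes in the table. GAS letters were in 5 of 24 (20.8%), against 9.55% of all genes. By set, ISRE letters were in 14 of 20 type I genes and in 4 of 4 GTPase genes. GAS letters were in 4 of the 20 type I genes and in 1 of the 4 GTPase genes, Igtp. A match describes letters and shows no binding. The 150 bases before the start site are printed for 6 members with a match and for Xaf1, a higher gene with none; bases of a match are in capitals and, where matches overlap, form one run.

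Ifit1, chr19:34640739-34640888, plus strand: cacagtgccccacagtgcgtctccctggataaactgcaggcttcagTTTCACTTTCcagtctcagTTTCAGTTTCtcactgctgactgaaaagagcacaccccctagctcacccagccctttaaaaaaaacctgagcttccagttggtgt
Oas1a, chr5:120907526-120907675, minus strand: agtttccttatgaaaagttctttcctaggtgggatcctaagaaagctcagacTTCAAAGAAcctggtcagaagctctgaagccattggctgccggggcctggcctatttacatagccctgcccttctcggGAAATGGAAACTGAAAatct
Bst2, chr8:71537473-71537622, minus strand: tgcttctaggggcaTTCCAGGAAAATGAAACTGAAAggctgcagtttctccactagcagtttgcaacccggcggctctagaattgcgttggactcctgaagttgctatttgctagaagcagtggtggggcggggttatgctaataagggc
Gbp3, chr3:142559894-142560043, plus strand: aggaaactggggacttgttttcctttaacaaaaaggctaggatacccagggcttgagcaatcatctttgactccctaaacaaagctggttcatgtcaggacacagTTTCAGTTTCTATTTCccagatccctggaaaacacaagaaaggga
Irgm1, chr11:48871421-48871570, minus strand: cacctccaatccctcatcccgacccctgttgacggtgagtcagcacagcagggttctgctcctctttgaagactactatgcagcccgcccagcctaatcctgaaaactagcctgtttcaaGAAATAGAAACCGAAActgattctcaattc
Igtp, chr11:58199406-58199555, plus strand: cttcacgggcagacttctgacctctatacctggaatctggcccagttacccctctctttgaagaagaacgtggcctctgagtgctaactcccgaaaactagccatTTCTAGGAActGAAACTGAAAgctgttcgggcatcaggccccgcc
Xaf1, chr11:72301479-72301628, plus strand: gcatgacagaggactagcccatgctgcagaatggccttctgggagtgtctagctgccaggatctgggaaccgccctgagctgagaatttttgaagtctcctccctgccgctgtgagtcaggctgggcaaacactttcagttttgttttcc

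These windows show several arrangements. Ifit1 holds 2 separate ISRE matches that begin 104 and 85 bases upstream of the start site. In Oas1a, Gbp3 and Irgm1, 2 ISRE matches overlap, beginning 20 and 14, 45 and 39, and 30 and 24 bases upstream. Bst2 has GAS letters 136 bases upstream that run into 2 overlapping ISRE matches, and Igtp has GAS letters at 45 and an ISRE match at 34 bases upstream. Of the 5 higher genes with a window, 2 held ISRE letters (Ifih1 and Igtp), and of the 13 genes within 2-fold that had one, 11 did. GAS letters were in 2 of the 5 (Ifit2 and Igtp) and in 3 of the 13. The higher genes Rtp4 and Ifi27l2a had no matched window, and so few genes allow no comparison.

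Of the type I genes of signalling and ISG15 removal, Stat2 was dim and Usp18 lay near the middle of the members. Stat2, a transcription factor of the type I response, had deposited signals of 3.72 in wild type and 2.82 in c-Maf KO and was under the floor on both arrays after level adjustment. Usp18, a protease that removes ISG15 from proteins and damps the type I receptor, went from 9.25 to 8.52, a level-adjusted log2 ratio of 0.78. In deposited signal Usp18 was slightly dimmer in c-Maf KO, and the median gene was dimmer by more.

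The 3 cytoplasmic RNA sensors all had positive ratios. Ifih1, which encodes MDA5, a sensor of long double-stranded RNA, went from 7.80 in wild type to 10.7 in c-Maf KO and was higher, by 2.56-fold (log2 ratio 1.35). Dhx58, encoding LGP2, a regulator of the other sensors, was at 6.26 and 6.56, a ratio of 0.85. Ddx58, encoding RIG-I, was at 13.3 and 9.62, a ratio of 0.49. In deposited signal Ifih1 and Dhx58 were thus brighter in c-Maf KO and Ddx58 dimmer. The windows of Ifih1 and Ddx58 each hold ISRE letters just after the start site.

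The PYHIN family, several of whose proteins sense DNA, had 2 measured genes that lay apart. Ifi203 went from 10.8 in wild type to 3.46 in c-Maf KO, with a log2 ratio of -0.87, the lowest of the 26 measured members. Ifi204, encoding a DNA sensor upstream of interferon production, went from 8.62 to 5.77, a ratio of 0.22. Both were dimmer on the c-Maf KO array as deposited, and as deposited Ifi203 was at least 2.91-fold lower, since its c-Maf KO signal was under the deposited floor.

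The IFIT genes, whose proteins bind foreign RNA and block its translation, were each under the floor on 1 array and did not go one way. Ifit2 went from 0.478 in wild type to 7.82 in c-Maf KO and was at least 2.90-fold higher. Ifit1 went from 0.695 to 3.45, which after level adjustment passes the floor only in c-Maf KO and gives a bound of at least 1.17-fold. Ifit3 ran opposite, from 5.45 to 0.725, at least 1.15-fold lower in ratio. Ifit1 and Ifit2 passed the floor only through the array where they were bright, and Ifit3 likewise through wild type. None of the 3 was bright enough for a measured fold.

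Of the oligoadenylate synthetase genes, a family whose active enzymes make the activator of RNase L, 4 of 5 were measured. Oasl2, a synthetase-like gene, went from 5.74 in wild type to 7.80 in c-Maf KO and was 2.41-fold higher (ratio 1.27). Oas1a was at 36.8 and 29.8 (ratio 0.84), and Oasl1 at 9.62 and 8.91 (ratio 0.79). Oas2 was at 38.6 and 18.4, a ratio of 0.057. Oas3 was under the floor on both arrays, at 1.58 and 1.19. As deposited, Oasl2 alone of the 4 was brighter in c-Maf KO, and Oas2 had a log2 ratio of -1.07, below the all-gene median of -0.79.

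The Mx genes, dynamin-like GTPases that trap viral particles, were low on both arrays. Mx1 went from 6.89 in wild type to 2.96 in c-Maf KO, under the floor there, with a ratio of -0.51. Mx2 was under the floor on both arrays, at 1.53 and 0.587. In the C57BL/6 background the Mx1 protein is known to be defective. Whether the defect bears on these signals was not tested.

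Both effectors of membranes had ratios close to those of Oas1a and Usp18. Rsad2, encoding viperin, was at 30.1 in wild type and 22.6 in c-Maf KO (ratio 0.71). Bst2, encoding tetherin, which holds budding virus at the cell surface, was at 18.0 and 14.9 (ratio 0.78). Both were somewhat dimmer as deposited and neither reached 2-fold.

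The remaining type I genes included the largest ratios of the list. Rtp4, a receptor transporter protein that binds viral RNA, went from 25.4 in wild type to 38.8 in c-Maf KO and was 3.31-fold higher (ratio 1.73). Xaf1, an antagonist of the apoptosis inhibitor XIAP, went from 6.87 to 11.6 and was 3.14-fold higher (ratio 1.65). Ifi27l2a, a small hydrophobic mitochondrial or nuclear membrane protein, went from 33.3 to 47.2 and was 3.10-fold higher (ratio 1.63). These 3 were brighter in c-Maf KO also as deposited. Trim30a, a ubiquitin ligase that restrains inflammatory signalling, was at 38.9 and 32.2 (ratio 0.88). Ifi35, the brightest member by its brightest probe set, was at 228 and 192 (ratio 0.90). Its other probe sets were far dimmer, at 18.3 and 13.6 and at 5.69 and 8.63.

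Taken as a set, 6 of the 21 measured type I genes were higher and 0 lower, against 8.34% and 9.05% of all measured genes. Their median ratio was 0.80, against 0.009 for all measured genes. For the 17 with both signals over the floor the median was 0.84, and 16 of them had a ratio above 0, against 50.2% of the 9452 such genes on the array. As deposited the type I median was -0.25, against -0.79 for all genes. Of the 24 type I genes with a probe set, 21 reached the floor, and 4 of those did so on 1 array only, so a ratio in their case reflects the array on which they were bright.

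The interferon-gamma GTPase genes had ratios on both sides of 0. Igtp, encoding the immunity-related GTPase IRGM3, went from 10.2 in wild type to 13.4 in c-Maf KO and was 2.55-fold higher (ratio 1.35). Irgm1, which regulates the other immunity-related GTPases on vacuoles and in autophagy, was at 20.05 and 13.3 (ratio 0.46). Iigp1, an effector that attacks parasite vacuoles, was at 10.3 and 4.95 (ratio -0.25). In deposited signal, Igtp was brighter in c-Maf KO and the other two were dimmer, Iigp1 by a log2 ratio of -1.06.

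The guanylate-binding proteins, GTPases that coat and lyse pathogen vacuoles, were represented by 2 genes. Gbp3 was at 8.71 in wild type and 9.13 in c-Maf KO, a ratio of 0.96 or 1.95-fold, just short of 2-fold. Gbp2 was at 8.74 and 5.38, a ratio of 0.094. Of the 5 GTPase genes, all above the floor on both arrays, 1 was higher and 0 lower, and their median ratio was 0.46 (-0.59 as deposited). Over all measured genes 8.34% were higher and 9.05% lower, and 5 genes are too few to compare with such shares. Whether the GTPase genes differ from the type I genes was not tested, and the order of the medians depended on the probe sets. Without suffixed probe sets the median was 1.08 for 3 GTPase genes and 0.79 for type I genes.

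**Figure D2:**
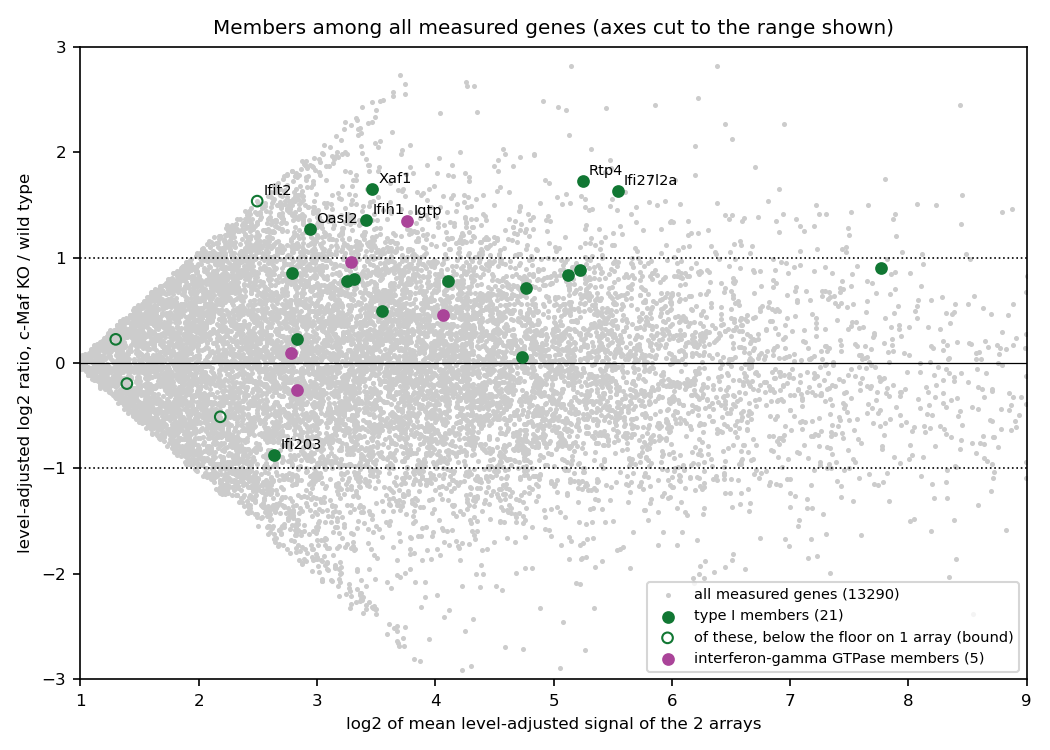
Level-adjusted log2 ratio of c-Maf KO over wild type (vertical) against the log2 mean level-adjusted signal (horizontal) for all 13290 measured genes (grey), the 21 type I members (green, open where only a bound) and the 5 interferon-gamma GTPase members (purple); dotted lines mark 2-fold and the axes are cut to the range shown. The 7 labelled points above the upper line are the higher members, and Ifi203 is the lowest at -0.87.

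Since ratios can depend on brightness, the members were set beside genes of like signal. All measured genes were put in 5 equal bins of mean level-adjusted signal. In the 3 brighter bins, from a mean signal of 7.16 upward, 17 of 17 members had a ratio above the median of their own bin, and the members' median was 0.88 against -0.011 for all genes there. In the 2 dimmer bins 5 of 9 members did, and the members' median was 0.094, close to the 0.031 of all genes there. Of these 9, Ifit1, Ifit2, Ifit3 and Mx1 had bounds and the other 5 were over the floor on both arrays.

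A scaling that fits the ratio against signal, a lowess curve through all probe sets, was compared with quantile normalization. Over the measured genes the median ratio still differed by signal bin, from 0.064 in the dimmest to -0.113 in the brightest (0.010 and -0.099 after quantile normalization). It left the same 7 members higher and 0 lower, against 7.86% of all genes higher and 9.32% lower. The type I median was 0.79 and the GTPase median 0.45. With the hybridisation control RNAs at equal level, where the median of all genes was -0.99, 0 members were higher and 4 were lower (Ifi203, Iigp1, Mx1 and Oas2). Relative to the median of all genes, the type I median stood 0.79 log2 units higher after quantile normalization, 0.54 as deposited and 0.50 with the hybridisation controls. For the GTPase genes these distances were 0.45, 0.20 and 0.16.

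**Figure D3:**
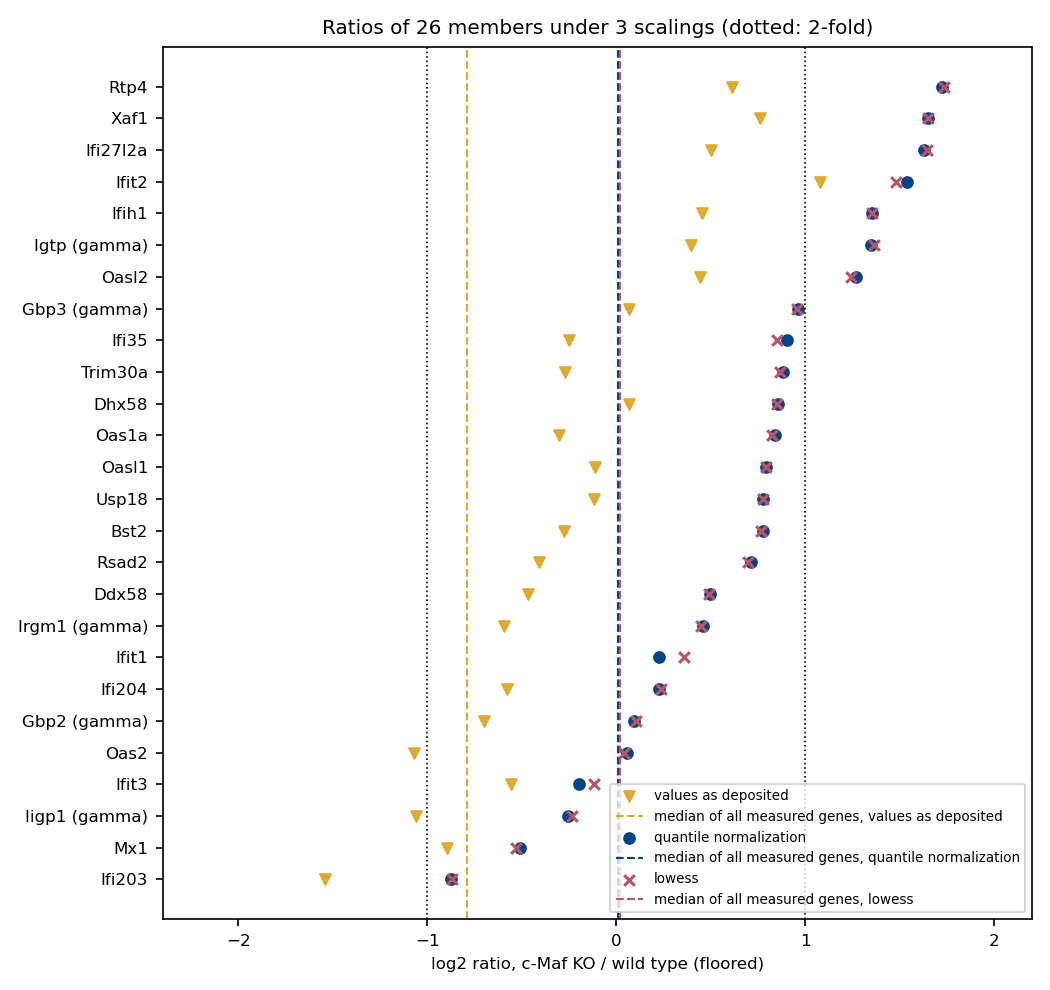
Log2 ratio of c-Maf KO over wild type (horizontal) of the 26 measured members, ordered by level-adjusted ratio, under quantile normalization (circles), lowess (crosses) and as deposited (triangles); dashed lines give the median of all measured genes on each scale and dotted lines mark 2-fold. Circles and crosses lie together with 18 of 21 type I members right of their dashed lines, and the triangles lie to their left, except for Ifit1, which has none because it was under the deposited floor.

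For 10 members more than 1 probe set was available. In 7 of them at least 2 probe sets reached the floor, and in 0 of the 7 did such probe sets lie on opposite sides of 0, though sizes differed. Ifi35 had ratios of 0.90, 0.61 and 1.45 from its brightest, its next and its dimmest probe set. Only the dimmest of these has no suffix. Gbp2 had 0.094 from a probe set with an _x suffix, which marks probes that can match other transcripts, and 1.08 from the other one (5.43 to 6.69). Trim30a had 0.88 and 0.13, and Xaf1 had 1.65 and a dim probe set at 0.79. The choice of probe set thus decides whether Gbp2 and Ifi35 are past 2-fold. Of the higher members Rtp4 had a further probe set, under the floor after level adjustment on both arrays, that went from 3.78 to 0.255, the other way.

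**Figure D4:**
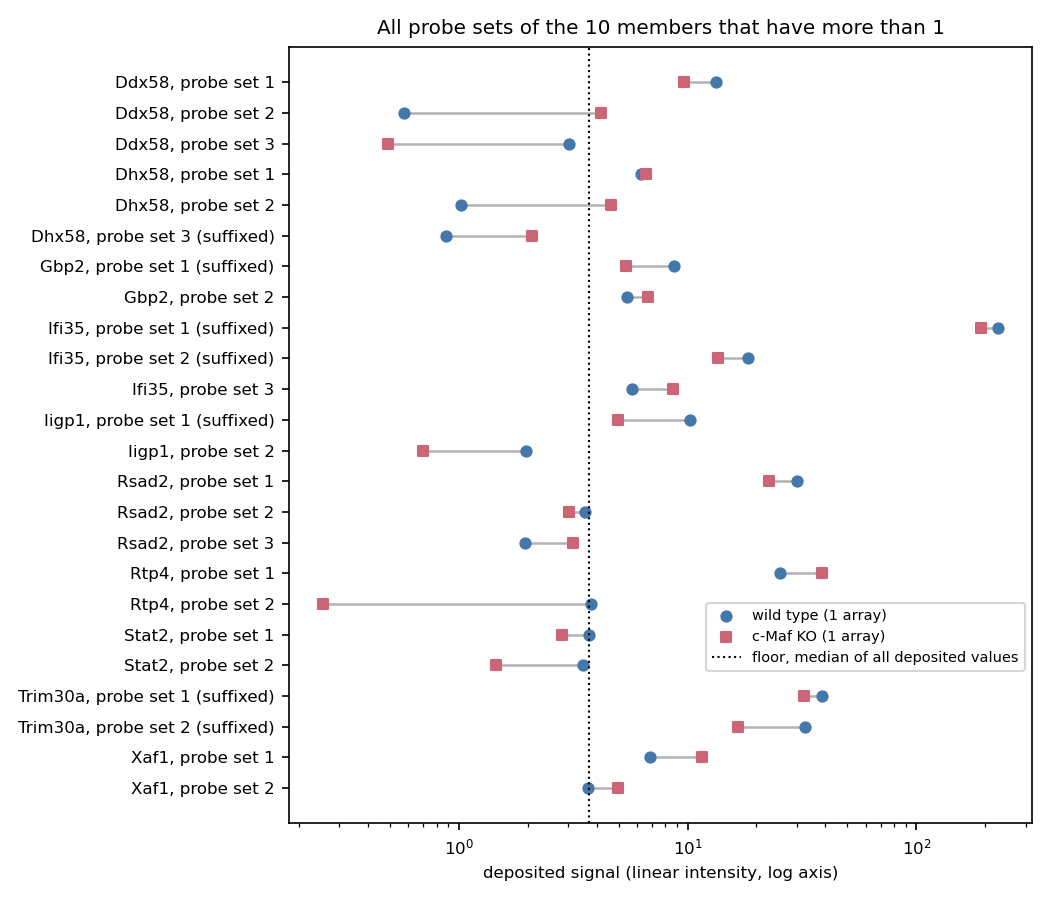
Deposited signal (horizontal, log axis) of all probe sets of the 10 members that have more than 1, numbered from bright to dim within a gene, with wild type as circles and c-Maf KO as squares, 1 array each; the dotted line is the deposited floor. The widest pairs reach left of the line, among them the second probe set of Rtp4, which went from 3.78 to 0.255.

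Other genes of the interferon pathway did not share the level of the members. Of 33 genes listed by role, 31 had a probe set and 28 were measured. Of the 28, 5 were higher, 2 lower and 21 within 2-fold, with a median ratio of 0.072. The roles differed, and the inhibitors, with a median of 0.72, stood near the members. The median was 0.32 for kinases and transcription factors and 0.016 for the interferon genes. It was -0.044 for antigen presentation and -0.495 for the receptor chains. Over all measured genes 8.34% were higher and 9.05% lower, and the counts by role below stand beside these shares. The interferon genes themselves were dim. Ifnb1 went from 5.35 in wild type to 0.496 in c-Maf KO, and Ifna2 from 1.88 to 6.61, at least 2.39-fold higher. Ifng, at 0.631 and 3.01, passed the floor only in c-Maf KO after level adjustment, and Ifna1, Ifna4 and Ifna5 were under it on both arrays.

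Among the receptor chains, 1 of 4 was lower and 0 higher. Ifnar2 went from 173 in wild type to 35.2 in c-Maf KO and was 2.16-fold lower (ratio -1.11), while its other probe sets had ratios of -0.92 and 0.81. Ifnar1 was at 13.2 and 4.57 (ratio -0.69). The interferon-gamma receptor genes Ifngr1 (52.2 and 19.3, ratio -0.29) and Ifngr2 (20.01 and 10.8, ratio 0.13) were within 2-fold.

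Of the kinases and transcription factors, 1 of 7 was higher and 0 lower. Jak1, the kinase shared by both receptors, went from 25.9 in wild type to 64.7 in c-Maf KO and was 5.47-fold higher (ratio 2.45), a larger ratio than that of any member. Its other probe sets had ratios of 1.93 and 0.50. Tyk2 (0.41), Jak2 (0.13), Irf9 (0.36), Irf1 (0.32) and Irf3 (-0.14) were within 2-fold. Irf7, which amplifies type I interferon production and is itself induced by interferon, was at 17.8 and 5.46, a ratio of -0.80 that ran opposite to most members.

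Inhibitors of the pathway were split. Socs3, an inducible inhibitor of cytokine receptors, went from 11.02 in wild type to 13.2 in c-Maf KO and was 2.34-fold higher, with a further probe set at 1.67 and the third at -0.15. Ptpn2, a phosphatase of Jak and Stat proteins, went from 770 to 145 and was 2.54-fold lower. Its other probe sets had ratios of -0.87, -0.28 and 0.30, of which only the first was over the floor on both arrays. Socs1 (0.80), Pias1 (0.72) and Ptpn6 (-0.42, and 0.98 from its other probe set) were within 2-fold. Further probe sets of Pias1 had ratios of 0.79, 0.67 and -1.06, the last over the floor on 1 array only.

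Genes of antigen presentation that interferon-gamma induces were also divided, with 2 of 9 higher and 0 lower. B2m, the light chain of MHC class I, went from 110 in wild type to 128 in c-Maf KO and was 2.59-fold higher, with a second probe set at 1.36. Psmb8, a subunit of the immunoproteasome, was at 18.1 and 17.8 and 2.06-fold higher. Its second probe set, at 16.9 and 11.5, had a ratio of 0.465 and was not past 2-fold. Tapbp (-0.99), Tap2 (-0.97) and Tap1 (-0.49), which load and transport peptides, had ratios below 0. The immunoproteasome and activator subunits Psme1 (0.88), Psmb10 (0.40) and Psmb9 (-0.044) were within 2-fold, and Nlrc5, a transactivator of MHC class I genes, went from 7.93 to 0.350, at least 1.62-fold lower in ratio. The median of the 9 was -0.044. As deposited, 3 of the 4 receptor chains and 3 of 7 kinases and transcription factors were at least 2-fold lower. So were 2 of 5 inhibitors and 5 of 9 presentation genes. On this scale 39.8% of all genes were at least 2-fold lower, since most genes were dimmer on the c-Maf KO array. Jak1 alone was at least 2-fold higher (all genes 1.19%).

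**Figure D5:**
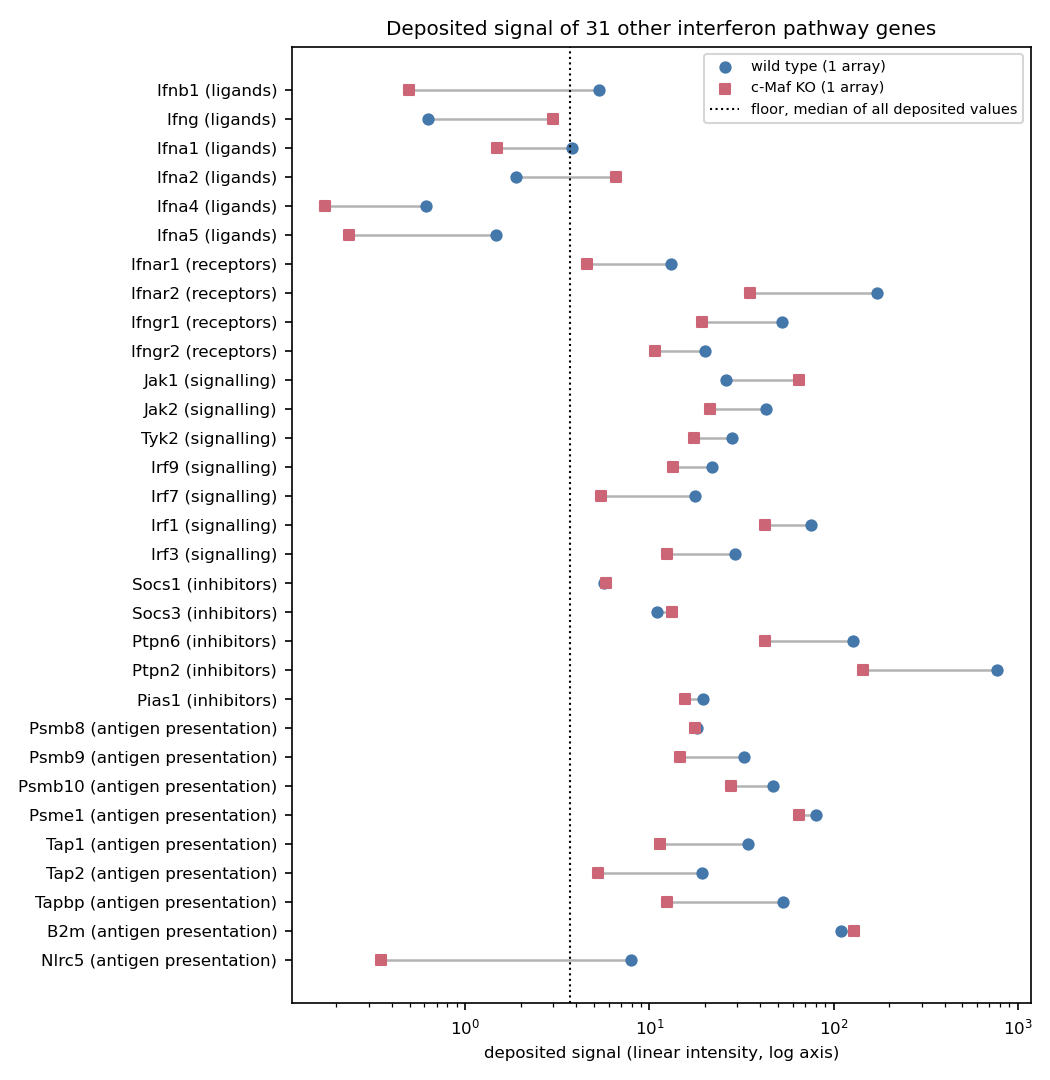
Deposited signal (horizontal, log axis) of the 31 other interferon pathway genes with a probe set of their own, with wild type as circles and c-Maf KO as squares, 1 array each; the dotted line is the deposited floor. Jak1 moves right by the largest step among genes above the line on both arrays (25.9 to 64.7), while Ptpn2 and Ifnar2 move left.

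Markers of other cells that the sort could hold were read on the same arrays, where 8.34% of all measured genes were higher and 9.05% lower. Plasmacytoid dendritic cells, which make much type I interferon and carry Bst2, had 0 of 5 measured markers at least 2-fold apart, a summed level-adjusted signal of 66.5 in wild type and 69.6 in c-Maf KO (Tcf4 was the brightest, at 44.0 and 12.8 in deposited signal), and their defining marker Siglech under the floor on both. Natural killer or T cells, a source of interferon-gamma, had 0 of 2 measured markers apart (summed 26.5 and 22.3; Nkg7 at 26.1 and 7.89), with Cd3e, Ncr1 and Gzma under the floor on both. Hepatoblast markers were higher in 6 of 6, with a summed signal of 228 and 800, led by Afp at 209 and 268 in deposited signal. Macrophage markers were higher in 2 of 9 and lower in 1 (summed 548 and 514). Csf1r was the brightest, at 625 and 248 in deposited signal. Adgre1 (71.4 and 48.1) was well above the floor on both arrays, Itgam (5.76 and 3.94) only just, and Cd163 was under it. Monocyte markers were higher in 1 of 4 and lower in 1 (summed 1935 and 1414; Ccr2 at 1212 and 190). Granulocyte markers were lower in 2 of 7 (summed 11458 and 9996; S100a9 at 4926 and 3812), and erythroid markers higher in 1 of 5 (summed 7926 and 5500; Hbb-y at 7061 and 4650). Endothelial markers were apart in 0 of 5 (summed 40.4 and 49.0; Stab2 at 20.3 and 10.9), megakaryocyte markers lower in 1 of 5 (summed 112 and 138; Pf4 at 102 and 52.1), and B cell markers apart in 0 of 3 (summed 18.7 and 15.1; Cd79b at 9.42 and 7.52). As deposited, 3 of the 6 hepatoblast markers and 0 of the other lists' markers were at least 2-fold higher, against 1.19% of all genes. The part of these cells in the levels of the interferon-stimulated genes was not tested.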

How the data were processed

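Total RNA of sorted fetal liver macrophages was read on 1 Affymetrix array for wild type and 1 for c-Maf KO, grouped by the genotype label. The deposited values are linear intensities, 1 per probe set (45101 in all); the sources used here do not say how the authors summarised or scaled them, and the columns have different medians. Symbols came from the platform annotation: 34945 probe sets named 1 gene, 932 several and 9160 none, and 34741 were matched by Entrez identifier to the GRCm38.p6 gene table. Quantile normalization (means on the log scale, all probe sets), a floor at the 50th percentile and a count past 2-fold were applied in Python 3.11.15 (numpy 2.4.6, pandas 2.3.3; lowess from statsmodels 0.14.6, span 0.3), after tests on simulated arrays. With 1 array per group no test was run. Named are all members, Maf, the other pathway genes and the brightest gene of each marker list, beside some defining markers (Siglech, Cd3e, Ncr1, Gzma, Adgre1, Itgam, Cd163), chosen after their values were seen. The members, lists and scaling were chosen with earlier results of these data known; the 13 alternatives are given in the closing section. Promoter sequences are RefSeq's, on GRCm38.p6; sequence on 1 chromosome is not reported here.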

Additional observations from a re-analysis of the deposited data

How the results depend on the processing

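The same members (6 type I genes and Igtp) were at least 2-fold higher, and 0 lower, with equal medians, centred log2 ratios, lowess, means over probe sets and the brightest probe set after normalization. Values as deposited gave 1 higher and 2 lower type I genes (median -0.25) and 0 higher and 1 lower GTPase gene (median -0.59), with 1.19% of all genes higher, 39.8% lower and a median of -0.79. Hybridisation controls at equal level gave 0 higher and 3 lower type I genes (-0.49) and 0 higher and 1 lower GTPase gene (-0.84), with 0.765% and 49.5% of all genes (-0.99). Equal medians gave 0.40 for type I and 0.074 for GTPase genes (all genes -0.23, 4.74% higher, 16.3% lower), and centred ratios 0.68 and 0.34 (all genes 0.14, 13.9% higher). A floor at the 25th percentile added Ifit1 as higher and 1 lower type I gene, Ifit3 (17.7% of all genes in each direction). The 65th percentile left 5 members higher, without Oasl2 and Ifit2, and the floor as a pseudocount 5, without Oasl2 and Ifih1 (type I median 0.63). Means over probe sets gave a GTPase median of 0.59 (all genes 5.14% lower). Only probe sets without a suffix gave 2 higher GTPase genes (Gbp2 and Igtp) of 3, a median of 1.08 (type I 0.79), and 8 members higher in all, with Ifi35 and without Oasl2, which then had none. At least 4 times the floor left 12 members, 5 of them higher, and a GTPase median of 0.90 from 2 genes (type I 0.89). At 1.5-fold, 14 type I genes were higher and 1 lower (Ifi203), 2 GTPase genes were higher, and all genes stood at 21.2% and 21.0%.

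No paired analysis was possible because each group has 1 array. Of the 26 measured members, 12 were 4 times or more above the floor; signal over background limits the others, and 0 have a replicate error.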

Other observations

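Probe sets whose annotation names a member together with other genes were left out of the counts and are assigned to none of the genes they name. The one naming Isg15 and Gm9706 had deposited signals of 13.3 in wild type and 7.66 in c-Maf KO (level-adjusted log2 ratio 0.14). The brightest, naming Ifi205 and Ifi211, PYHIN genes, had 273 and 120 (-0.008), and that naming Ifi204, Ifi205, Ifi211 and Mndal had 61.7 and 37.8 (0.46). Those naming Ifi203 with its pseudogene and further loci had 43.6 and 16.3 (-0.29), 33.3 and 11.9 (-0.41) and, under the floor, 0.846 and 2.04. The probe set for Trim30a and Trim30d had 9.37 and 11.3 (1.19), and that for Gbp4 and Gbp8 was under the floor on both arrays at 0.376 and 0.280.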
